A study of Mus musculus with 4 samples.

Results

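The transcripts of long-chain fatty acid uptake and activation were followed in EO771, a mouse mammary carcinoma cell line, after exposure to recombinant A-FABP. The members were the receptor gene Cd36, the transporter genes Slc27a1, Slc27a2, Slc27a3 and Slc27a4, and the acyl-CoA synthetase genes Acsl1, Acsl3, Acsl4, Acsl5 and Acsl6. A probe set annotated to one of these genes alone stood for it, and where there was a choice, the one with the highest mean over the 4 arrays. This gave 8 measured members of the 10 listed, among 22180 genes with a probe set of their own. Acsl3 is annotated only in a probe set shared with another gene and Acsl1 is not named by the annotation used here, so neither was analysed here.

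The treated cultures (2 arrays) received recombinant mouse A-FABP, the adipose fatty acid binding protein encoded by Fabp4, at 100 ng/ml in culture medium. The control cultures (2 arrays) received PBS. All were the same line, grown for 24 hours to at least 70% confluence beforehand, and the titles call the arrays biological replicates. How long the cells were treated is not stated in the labels used here. The description field of the controls mentions A-FABP too, although the series design, the source names and the titles mark them as PBS controls, and these were followed. The comparison sets carcinoma cells exposed to an extracellular lipid chaperone against unexposed ones.

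Long-chain fatty acids cross the plasma membrane with the help of CD36, a scavenger receptor that binds them at the cell surface, and of the fatty acid transport proteins of the SLC27 family. Inside the cell a long-chain fatty acid is joined to coenzyme A by the ACSL enzymes or by SLC27 proteins, many of which are acyl-CoA synthetases themselves. This activation traps the fatty acid and makes it available for membrane lipids, storage, oxidation and signalling. In adipose tissue and the mammary gland, CD36 is known from adipocytes, capillary endothelium, macrophages and the milk-secreting epithelium.

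The promoter windows of 3 members are shown: Acsl4 and Acsl5 had the largest differences between the groups, and Cd36, the cell-surface receptor, was the dimmest member. Each window covers 250 bases before to 50 bases after a gene start in RefSeq (build GRCm38.p6) and is written 5′ to 3′ on the strand of the gene. Capitals mark the GC box GGGCGG, the CCAAT box CCAAT and the nuclear receptor half-site AGGTCA, on either strand. The start sites used by EO771 cells were not measured.
Acsl4 promoter, chrX:142390486-142390785, minus strand: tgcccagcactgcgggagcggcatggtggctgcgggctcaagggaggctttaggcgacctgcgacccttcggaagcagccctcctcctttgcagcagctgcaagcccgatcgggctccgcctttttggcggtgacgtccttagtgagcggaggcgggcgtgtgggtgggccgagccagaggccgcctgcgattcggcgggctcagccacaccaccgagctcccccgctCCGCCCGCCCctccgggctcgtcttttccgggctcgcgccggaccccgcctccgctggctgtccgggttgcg
Acsl5 promoter, chr19:55253119-55253418, plus strand: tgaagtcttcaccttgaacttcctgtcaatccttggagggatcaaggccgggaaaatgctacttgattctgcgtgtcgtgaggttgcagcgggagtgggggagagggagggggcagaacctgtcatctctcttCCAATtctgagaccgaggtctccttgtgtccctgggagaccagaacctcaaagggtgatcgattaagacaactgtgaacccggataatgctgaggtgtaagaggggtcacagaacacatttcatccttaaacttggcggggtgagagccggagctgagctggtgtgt
Cd36 promoter, chr5:17835847-17836146, minus strand: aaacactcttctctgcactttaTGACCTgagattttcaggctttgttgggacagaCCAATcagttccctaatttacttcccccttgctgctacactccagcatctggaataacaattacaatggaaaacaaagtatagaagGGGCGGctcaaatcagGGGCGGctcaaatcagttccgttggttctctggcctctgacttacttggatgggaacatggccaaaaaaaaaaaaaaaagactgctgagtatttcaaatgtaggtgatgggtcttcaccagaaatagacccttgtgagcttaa
The Acsl4 window is rich in CpG, with 33 CpG dinucleotides at 71.7% G and C, and its 2 GC boxes overlap on the opposite strand. The Acsl5 window has 9 CpG dinucleotides at 53.0% G and C and holds 1 CCAAT box and no GC box. The Cd36 window is poorer still, with 3 CpG dinucleotides at 43.0%. It holds 2 GC boxes in a short tandem repeat, 1 CCAAT box and 1 half-site.

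RefSeq gave 15 such windows for the 10 listed genes, with several starts for Slc27a1, Acsl1 and Acsl6. A GC box was found in 12 of the 15, where 35.7% of all 32851 windows of the same length hold one. G and C content exceeded the median of all windows (52.7%) in 13 of the 15. The half-site AGGTCA occurred in 3 of the 15 (Cd36, Slc27a2 and 1 of the Acsl6 windows), against 16.3% of all windows. Its direct repeat with a spacing of 1 base, AGGTCANAGGTCA, the arrangement bound by PPAR and RXR receptors, was found in 0 of the 15 and in 0.0396% of all. At that rate a hit in 15 windows was very unlikely. Inexact copies and bases outside the windows were not searched, so the 0 says nothing of binding by these receptors. CCAAT was present in 9 of the 15, against 37.4% of all windows, the E-box CACGTG in 1 (7.15% of all) and TATAAA in 0 (13.6% of all). Both strands were searched, and no motif of the 6 was found in the windows of both Acsl4 and Acsl5.

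The differences of all 8 members between A-FABP and PBS cultures were small, and none passed the test. Acsl5 and Acsl4 had the largest, at 1.12-fold and 1.11-fold, and the others lay between 0.925-fold and 1.05-fold. Fold changes are on the RMA scale, which compresses differences of dim and very bright probe sets. By limma over all 41345 probe sets, 0 of 8 members had an adjusted p under 0.05, as did 0% of all probe sets. Without adjustment, 0 of 8 had a p under 0.05, against 13% of all 22180 genes (4.81% higher and 8.24% lower with A-FABP). The lowest confidence bound of any member was 0.757-fold (Cd36) and the highest 1.30-fold (Acsl5), so changes beyond these sizes lie outside the 95% intervals. With 2 arrays in each group, the smallest two-sided p of an exact permutation test is 0.333.

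**Figure D1:**
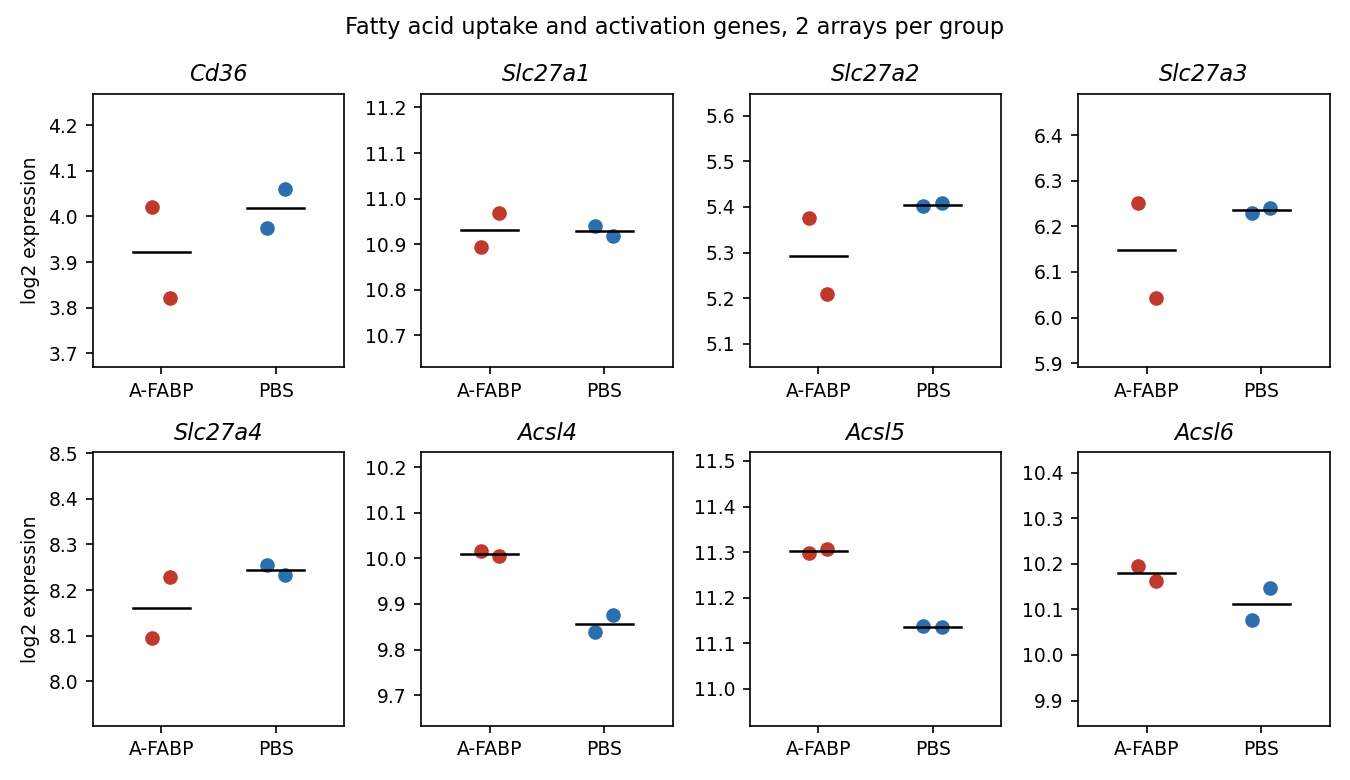
Log2 expression of the 8 measured members on each array, with A-FABP left and PBS control right. Points are arrays, lines are group means and every panel spans the same log2 range; the points of Acsl4 and Acsl5 lie close together within each group and apart between groups, while those of Cd36, Slc27a1 and Slc27a3 overlap.

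Cd36 lay at 4.02 and 3.82 log2 units with A-FABP, against 3.98 and 4.06 with PBS. It was near the bottom of the arrays, above 13.6% of all probe sets, and its groups overlapped. The difference was -0.097 ± 0.11 (SE, 2 arrays per group), which is 0.935-fold (95% confidence interval 0.757 to 1.16, adjusted p = 0.689). Without A-FABP replicate 2 it was 0.0033. Background flags were not used here, so a dim value does not show that the transcript was missing. Probe affinity differs between probe sets, so bright and dim describe signal here and do not rank genes by transcript amount.

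Among the transporters, Slc27a1 was the brightest on the arrays and the closest to no difference. Slc27a1 encodes FATP1, a transporter of muscle and adipose tissue that responds to insulin, and its probe set lay above 96.0% of all probe sets. It was measured at 10.89 and 10.97 with A-FABP, against 10.94 and 10.92 with PBS. The A-FABP arrays lay on either side of both controls. The difference was 0.0017 ± 0.081 (SE), with a fold interval of 0.855 to 1.17 (adjusted p = 0.995).

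Slc27a4 encodes FATP4, the transporter of the intestine and the skin barrier. Its values were 8.09 and 8.23 with A-FABP, against 8.25 and 8.23 with PBS. The A-FABP arrays were the 2 lowest, though A-FABP replicate 2 was only just below the lower control. The group means were 8.16 ± 0.094 with A-FABP and 8.24 ± 0.014 with PBS (SD, n = 2 each), a difference of -0.083 ± 0.090 (SE, adjusted p = 0.678). Without A-FABP replicate 1 it was -0.016.

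Slc27a2 encodes FATP2, a transporter and very long-chain acyl-CoA synthetase of liver and kidney, and it was dim in these cells. It lay at 5.38 and 5.21 with A-FABP, against 5.40 and 5.41 with PBS. The A-FABP arrays were both lower, and the gap to the nearer one was small beside the spread within the A-FABP pair. The difference was -0.11 ± 0.097 (SE), or 0.925-fold with an interval of 0.766 to 1.12 (adjusted p = 0.602). It was -0.20 without A-FABP replicate 1 and -0.029 without A-FABP replicate 2. The second Slc27a2 probe set was dimmer, at a mean of 4.62 with A-FABP and 4.65 with PBS, and differed by -0.035 with overlapping groups.

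Slc27a3 encodes FATP3, a family member known mainly for acyl-CoA synthetase activity. Its probe set gave 6.25 and 6.04 with A-FABP, against 6.23 and 6.24 with PBS. One A-FABP array lay above both controls and the other below both. The difference of -0.087 ± 0.11 (SE, adjusted p = 0.713) was 0.016 without A-FABP replicate 2.

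Acsl5, an isoform of mitochondria and endoplasmic reticulum that is prominent in intestine and liver, was the brightest member. It lay at 11.30 and 11.31 with A-FABP, against 11.14 and 11.14 with PBS, above 97.0% of all probe sets. The groups did not overlap, and the arrays of a group were nearly equal. The group means were 11.30 ± 0.0076 with A-FABP and 11.14 ± 0.0017 with PBS (SD, n = 2 each). The difference was 0.17 ± 0.076 (SE), or 1.12-fold with an interval of 0.968 to 1.30. It did not pass (unadjusted p = 0.0955, adjusted p = 0.39); limma's SE moderates the variance of a probe set towards that of all probe sets.

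Acsl4 encodes the isoform that prefers arachidonic acid and whose products make membranes sensitive to ferroptosis. It lay at 10.015 and 10.005 with A-FABP, against 9.838 and 9.875 with PBS. Both A-FABP arrays were again above both controls. The difference was 0.15 ± 0.077 (SE), or 1.11-fold with an interval of 0.957 to 1.29 (adjusted p = 0.418). Leaving out any single array gave 0.13 to 0.17 for Acsl4 and 0.16 to 0.17 for Acsl5.

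Acsl6 encodes an isoform enriched in brain that favours docosahexaenoic acid. Its brighter probe set lay at 10.19 and 10.16 with A-FABP, against 10.08 and 10.15 with PBS. These groups did not overlap, but the gap between the nearest arrays was narrow. The difference was 0.068 ± 0.081 (SE), 1.05-fold with an interval of 0.896 to 1.23 (adjusted p = 0.706). It was 0.033 without PBS control replicate 1 and 0.10 without PBS control replicate 2. A second, dim Acsl6 probe set averaged 5.54 with A-FABP and 5.62 with PBS, differed by -0.084 and overlapped between groups. The mean over both probe sets differed by -0.0081, so the sign for Acsl6 depends on the probe set taken.

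**Figure D2:**
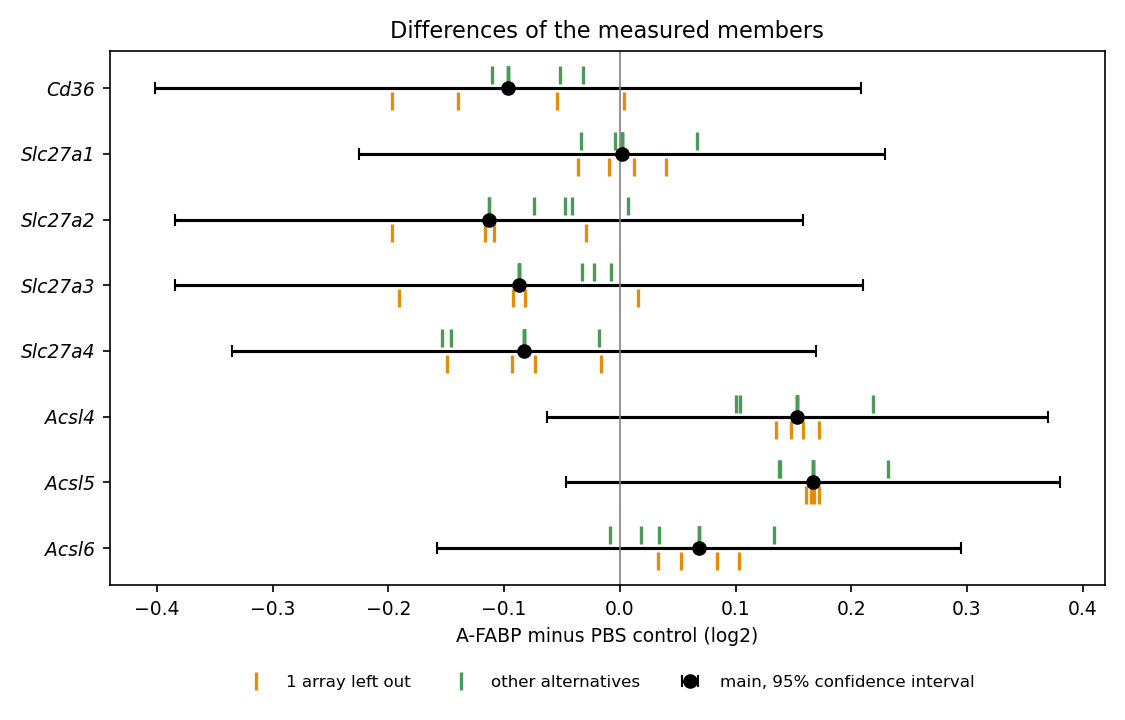
A-FABP minus PBS control for each measured member on the log2 scale. Black points and bars are the limma estimate and its 95% confidence interval. Orange ticks are the values with 1 array left out and green ticks the other alternatives. Every interval includes 0, and Acsl4, Acsl5 and Slc27a4 stay on their own side of 0 in all settings drawn. For these genes only median centring, cyclic loess and repeated quantile normalization could have changed the side.

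Set side by side, the 3 measured synthetases lay above 0 and 3 of the 4 transporters below it. Of all 22180 genes, 10562 lay above 0 and 11618 below. Some of these signs were not stable. Slc27a2 lay at 0.0074 after cyclic loess, Slc27a3 at 0.016 without A-FABP replicate 2 and Acsl6 at -0.0081 over both its probe sets. The synthetases averaged 10.50 and 10.49 with A-FABP, against 10.35 and 10.39 with PBS, with a median difference of 0.15. The transporters averaged 7.65 and 7.61 with A-FABP, against 7.71 and 7.70 with PBS, with a median difference of -0.085. Over all 8 members the median was -0.041, against -0.010 over all genes. The groups were separate with A-FABP on the higher side in 3 members, as in 26% of all genes, and on the lower side in 2, as in 27.5%. The classes are protein families, and the difference between the classes was not tested.

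Differences across the arrays moved with expression level, and the members are spread over that range. Genes with a mean level of 5 to 6 had a median difference of -0.15, those of 6 to 7 a median of -0.10, those of 8 to 9 a median of 0.092 and those of 10 to 11 a median of 0.035. Slc27a2 and Slc27a3, in the first and second of these ranges, lay within 0.033 and 0.013 of the medians there. Slc27a4 lay 0.17 below the median of its range, and its value was under the lower quartile of 0.016. Acsl5 lay 0.15 above the median of genes at 11 to 12 and Acsl4 lay 0.089 above that of genes at 9 to 10, both over the upper quartiles of 0.075 and 0.14. The part of level in the members' differences was not tested.

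**Figure D3:**
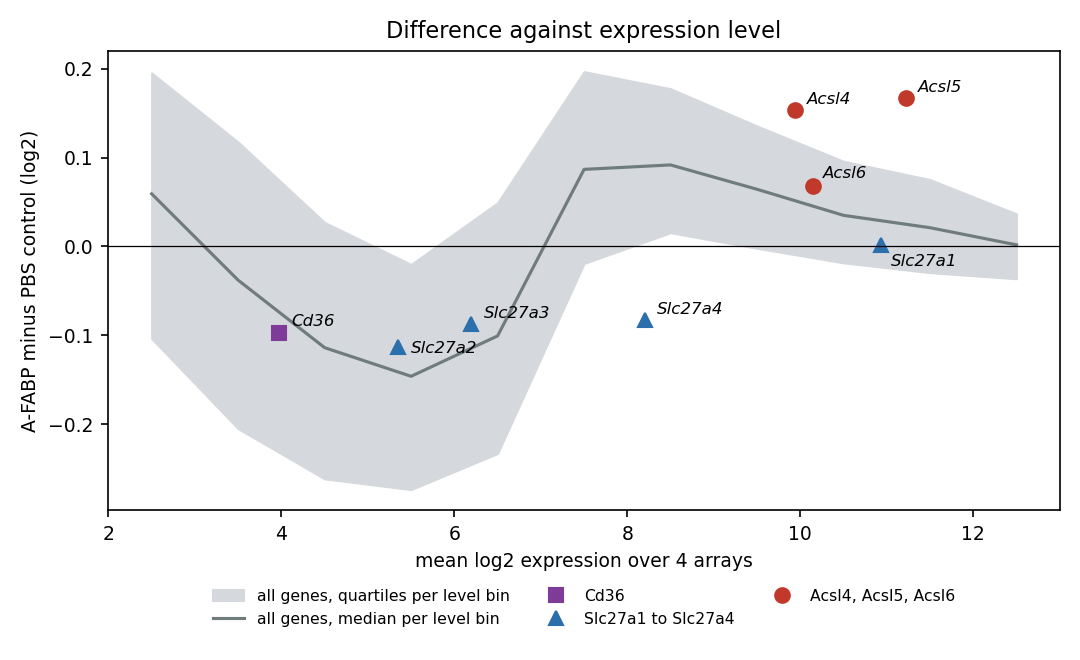
Difference between A-FABP and PBS control (log2) against mean log2 expression over the 4 arrays. The grey line and band are the median and quartiles of all genes in bins 1 log2 unit wide (bins of at least 100 genes), and symbols are the members; Acsl4 and Acsl5 lie above the band, Slc27a4 below it and the other members inside it.

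The genes that share the pathway with the members were described through 5 lists with 63 measured genes of 68. Of these, 1 was higher and 2 were lower at an unadjusted p under 0.05, against 4.81% and 8.24% of all genes, and 0 passed the adjusted threshold. Their median difference was 0.0070, with 34 above 0 and 29 below. Among 12 other uptake genes 0 had an unadjusted p under 0.05, and the median was 0.022. Mfsd2a, a transporter of lysophosphatidylcholine that carries docosahexaenoic acid, lay at 8.58 and 8.70 with A-FABP, against 8.38 and 8.53 with PBS (difference 0.19 ± 0.10 SE, adjusted p = 0.454). Slc27a5, the bile acid and fatty acid transport protein of liver, was dim at 5.18 and 5.21 with A-FABP, against 5.66 and 5.29 with PBS. Without PBS control replicate 1, Mfsd2a differed by 0.11 and Slc27a5 by -0.091.

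Other acyl-CoA synthetases had a median of -0.027 over 12 measured genes, 5 above 0 and 7 below. Acsm4, a medium-chain synthetase, was dim and lay at 4.78 and 4.46 with A-FABP, against 5.23 and 4.97 with PBS. Its difference of -0.48 ± 0.16 (SE, unadjusted p = 0.0443, adjusted p = 0.322) was the only one of this list under an unadjusted 0.05, and it ran from -0.32 (without A-FABP replicate 2) to -0.64 with 1 array left out. Acsf2, another medium-chain synthetase, averaged 8.995 ± 0.0075 with A-FABP and 8.839 ± 0.026 with PBS (SD, n = 2 each), a difference of 0.16 ± 0.077 (SE, adjusted p = 0.411). Among 7 acyl-CoA binding protein genes, Acbd5, a peroxisomal tether, differed by 0.15 and Dbi, the main cytosolic acyl-CoA binding protein, by -0.092 (-0.029 without A-FABP replicate 1).

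Thioesterases, which release the fatty acid from coenzyme A again, had a median of -0.0036 over 14 measured genes. Acot9, a mitochondrial thioesterase, lay at 7.14 and 7.02 with A-FABP, against 6.81 and 6.54 with PBS. Both A-FABP arrays were higher, by 0.40 ± 0.13 (SE, 1.32-fold, unadjusted p = 0.0392, adjusted p = 0.316). Them4, also a thioesterase gene, differed by 0.29 ± 0.13 (SE, adjusted p = 0.392). Acyltransferases that consume acyl-CoA had a median of 0.036 over 18 genes, 11 above 0 and 7 below. Dgat2, which makes triglyceride, lay at 6.02 and 5.88 with A-FABP, against 6.34 and 6.42 with PBS, a difference of -0.44 ± 0.096 (SE, unadjusted p = 0.0111, adjusted p = 0.296). Gpat2, a glycerol phosphate acyltransferase gene, was dim and differed by -0.40 ± 0.16 (SE, adjusted p = 0.353). With 1 array left out, Acot9 ran from 0.27 (without PBS control replicate 2) to 0.54, Them4 from 0.17 (without A-FABP replicate 2) to 0.41 and Gpat2 from -0.25 (without A-FABP replicate 1) to -0.55.

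**Figure D4:**
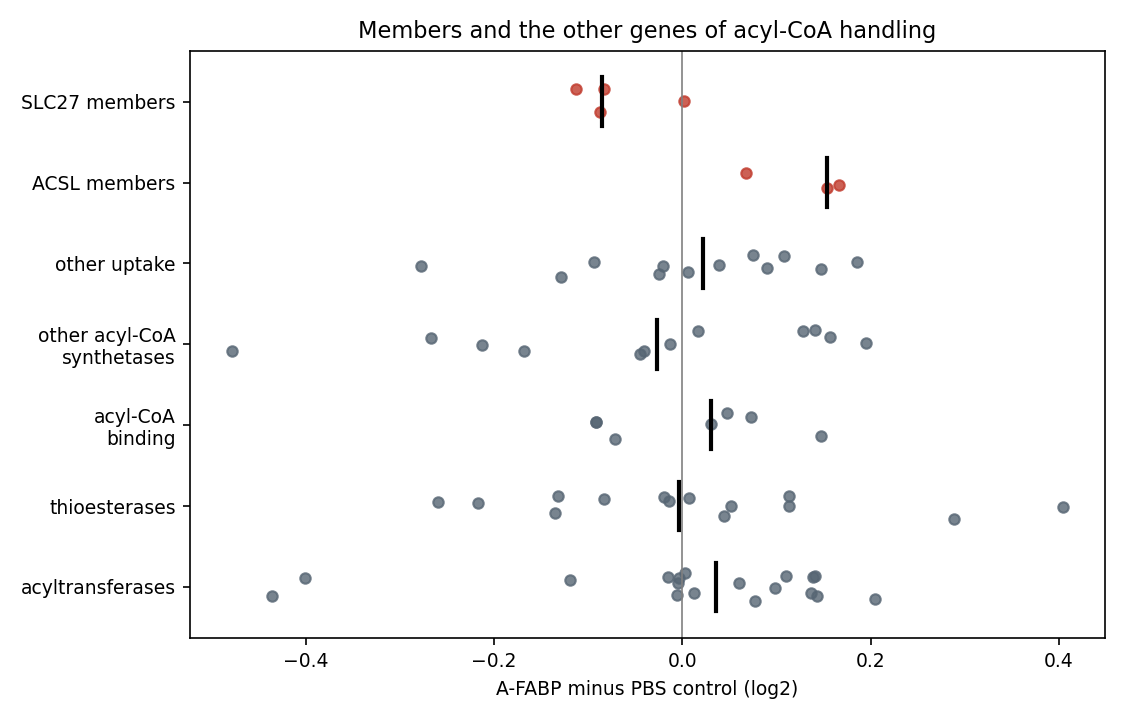
A-FABP minus PBS control (log2) for the SLC27 and ACSL members (red) and for the genes of the 5 pathway lists (grey), with 1 point per measured gene and a black bar at the median. The list medians lie between -0.027 and 0.036, and the single genes farthest from 0 are Acsm4, Dgat2, Acot9 and Gpat2.

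As array checks, medians were 5.98 and 5.95 log2 units with A-FABP, against 6.03 in both PBS controls, and replicates correlated at r = 0.9906 with A-FABP and 0.9914 with PBS. The 8 mammary epithelial markers averaged 6.25 and 6.22 with A-FABP, against 6.39 and 6.33 with PBS, with 6 below 0 and a median difference of -0.10. Of all 22180 genes, 11618 lay below 0. The brightest of them, Krt8, lay at 8.76 and 8.85 with A-FABP, against 8.83 and 8.74 with PBS. Krt18 and Krt19 lay near the middle of all probe sets, above 50.5% and 50.4% of them. Epcam was dim, at 4.45 and 4.85 with A-FABP, against 4.79 and 5.05 with PBS. Markers of cells that carry CD36 averaged 5.91 and 5.83 with A-FABP, against 5.87 and 5.92 with PBS, for 6 adipocyte genes. The 8 macrophage genes averaged 6.56 and 6.54 with A-FABP, against 6.68 and 6.65 with PBS. At an unadjusted p under 0.05, 2 of the 8 were lower, against 8.24% of all genes. In the same list 4 genes were lower on both A-FABP arrays than on either control, against 27.5% of all genes. These were Ptprc (-0.45), Itgam (-0.34), Fcgr1 (-0.30) and Cd68 (-0.079). Cd14 (0.28) and Csf1r (0.16), 2 of the 8, were higher on both, against 26% of all genes. The 8 endothelial genes averaged 5.73 and 5.82 with A-FABP, against 5.86 and 5.84 with PBS, and 5 of them differed by less than 0. Both A-FABP arrays were below both controls in 3, against 27.5% of all genes. At an unadjusted p under 0.05, 1 was lower, against 8.24% of all genes. The epithelial, macrophage and endothelial lists had median levels of 6.15, 5.97 and 5.82. All genes at 5 to 6 and at 6 to 7 had median differences of -0.15 and -0.10. Lower values in these lists are therefore not particular to the markers. The 7 fibroblast genes averaged 7.81 and 7.77 with A-FABP, against 7.72 and 7.76 with PBS. Of these, 6 lay above the median probe set, as did 12545 of all 22180 genes. So did 6 of the 8 epithelial, 4 of the 8 macrophage, 3 of the 6 adipocyte and 2 of the 8 endothelial genes. Pdgfra lay at 11.20 and 11.21 with A-FABP, against 11.22 and 11.16 with PBS. Cd68 of the macrophage list lay above 99.5% of all probe sets. All 4 cultures were of the EO771 line, not of a tissue in which the marked cell types are mixed. The lists therefore describe transcripts of that line and not shares of cell types. Any relation of these markers to the Cd36 value was not tested, and bulk RNA cannot tell a change in some cells from a change in all.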

How the data were processed

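Total RNA of 4 EO771 cultures was labelled with biotin and hybridised to single-colour arrays. The deposited values are log2 expression per probe set. The submitters' processing notes name RMA and Partek 6.6; no genome build is named. The platform annotation named 1 gene for 23521 of 41345 probe sets, several for 1814 and none for 16010. Groups and replicate numbers came from the titles.

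A-FABP minus PBS control was fitted with limma 3.58.1 in R 4.3.3 (lmFit, eBayes) across the 41345 probe sets (two-sided, Benjamini-Hochberg, threshold 0.05). It had 2 residual degrees of freedom and 1.91 prior ones. The fit was also run on data simulated from its own variance model, which cannot show how it performs where that model fails. The small number of arrays limits the precision. Alternatives were median centring, cyclic loess, repeated quantile normalization, a filter at the median level, trend and robust variances, a replicate block, the mean over a gene's probe sets, and each array left out. Members, gene lists and tests were chosen with earlier results of these data known. All measured members are named, and from each of 5 pathway lists the 2 genes with the lowest p. Acsm3, Acot8, Cpt1b, Soat1, Soat2 and Cfd of the lists had no probe set of their own. Promoter sequences and motif counts come from RefSeq windows of build GRCm38.p6.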

Additional observations from a re-analysis of the deposited data

How the results depend on the processing

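No member had an adjusted p under 0.05 in any of the 11 alternatives run, and no probe set in the 10 that were fitted over probe sets (the mean over a gene's probe sets was read for the named genes only). The 4 fits with 1 array left out have an arm of 1 array, which is assumed to vary like the other group, so their missing calls say little about stability. Unadjusted p-values under 0.05 numbered 6258 probe sets as reported, from 3489 without PBS control replicate 2 to 6876 with trend and robust variances. It was 4002 without A-FABP replicate 2 and 4169 without PBS control replicate 1. The filter at the median level gave 4346 and tested fewer probe sets. The median over the members, -0.041 as reported, was 0.024 after median centring, 8.74e-06 after cyclic loess, -0.018 after repeated quantile normalization and 0.035 over the 6 members above the median level. With 1 array left out it ran from -0.032 to 0.012. The cause of these shifts was not tested. Of 86 member values under alternatives, 8 changed sign. Many of the 86 could not change. The filter, the trend and robust variances and the replicate block leave each difference as reported. The mean over probe sets does so for members with 1 probe set. Cyclic loess gave -0.034 for Slc27a1 and 0.0074 for Slc27a2. Repeated quantile normalization gave -0.0038 for Slc27a1, and the mean over probe sets -0.0081 for Acsl6. With 1 array left out, Cd36 ran from -0.20 to 0.0033, Slc27a1 from -0.036 to 0.040 and Slc27a3 from -0.19 to 0.016. Acsl4 (0.10 to 0.22), Acsl5 (0.14 to 0.23) and Slc27a4 (-0.15 to -0.016) kept their sign in all 11. Their groups did not overlap, so leaving out 1 array could not reverse them. Only median centring, cyclic loess and repeated quantile normalization could have done so, and the count of 11 overstates their stability. The replicate numbers did not pair the arrays by the check made: deviations of same-numbered arrays correlated at -0.0089. With the replicate block, 0 probe sets passed, 5464 had an unadjusted p under 0.05 and the members' median was -0.041. Dim probe sets, Cd36 and Slc27a2 among them, are limited by background that was not measured here.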
